A study of Mus musculus with 12 samples.

Results

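The 10 genes described here encode the MHC class II presentation machinery of the mouse. These are the chains H2-Aa, H2-Ab1, H2-Eb1 and H2-Eb2, the peptide editor chains H2-DMa and H2-DMb1, and H2-Oa and H2-Ob, which inhibit that editor. The others are the invariant chain Cd74 and the transactivator Ciita. All 10 were taken by name from the 55401 genes of the count table. All of them were among the 14079 genes that passed the filter on low counts. The cells were Sp37A3, a dendritic cell (DC) line from C57BL/6 spleen, grown with GM-CSF and M-CSF. CtrV cells carried the empty lentiviral vector and express Siglec-E, an inhibitory receptor that binds sialylated glycans. Cells labelled EKO were transduced with a CRISPR/Cas9 vector against Siglece and were a pool of several single-cell clones. Cells of each line were either pulsed with ovalbumin (OVA) or left unpulsed, and all groups were stimulated with LPS and processed for 24 h, so that no group was without LPS. Each of the 4 groups had 3 libraries, and nothing in the labels says whether these came from separate cultures, so the p-values cover only the spread between these libraries.

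Class II molecules are pairs of an alpha and a beta chain that show peptides from endosomes to CD4+ T cells. The invariant chain fills the groove of newly made pairs until lysosomal proteases remove it, and H2-M, a pair of H2-DMa and a DM beta chain, then exchanges its remnant for antigenic peptides. H2-O, a pair of H2-Oa and H2-Ob, restrains H2-M. Transcription of most of these genes depends on Ciita, which has no DNA binding of its own and is recruited by factors bound to the X and Y boxes of the promoters. In dendritic cells, maturation by LPS is known to switch off Ciita while class II molecules are retained at the surface.

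Library totals ranged from 27116201 to 39698572 counts. Replicate 1 of the EKO-labelled cells, with and without OVA, stood apart on the second principal component, which held 7.11% of the variance (-18.8 and -20.5, against 1.15 to 18.3 in the other EKO-labelled libraries). Siglece mRNA, the targeted transcript, did not fall with the EKO label. It lay at 150 to 163 CPM (counts scaled by library size) in CtrV cells and at 166 to 235 CPM in EKO-labelled cells, with a log2 fold change of 0.31 ± 0.08 (SE) with OVA (adjusted p = 0.011) and 0.41 ± 0.08 without (adjusted p = 0.0026). With OVA that difference no longer passed the threshold in 2 of 6 fits without 1 library, those without replicate 2 of either line (adjusted p up to 0.073). Counts of mRNA do not show whether the reading frame was cut. The study states that the clones it pooled had been checked and expressed little or no Siglec-E. The label is taken as the submitters give it. Of 13 dendritic or myeloid markers, 11 passed the filter. The 13 together lay at 5452 to 6198 CPM in CtrV and 5080 to 5983 CPM in EKO-labelled cells. The DC marker Itgax was at 823 to 1089 CPM and Zbtb46 at 56.4 to 78.7 CPM, whereas Clec9a had at most 1 count. Csf1r lay at 591 to 652 CPM in CtrV and 841 to 948 CPM in EKO-labelled cells, and Ptprc at 266 to 290 and 336 to 397 CPM. Csf2rb went the other way, at 2633 to 2898 CPM in CtrV and 1752 to 2471 CPM in EKO-labelled cells. Itgam (524 to 689 and 588 to 878 CPM), Csf2ra and Sirpa overlapped between the lines. Flt3 lay at 0.997 to 1.92 CPM in CtrV and 1.80 to 7.85 CPM in EKO-labelled cells, and Batf3 at 2.45 to 4.59 and 5.72 to 14.8 CPM. In the same order, Xcr1 lay at 0.179 to 0.398 and 0.863 to 1.38 CPM, and Siglech at 0.106 to 0.332 and 0 to 0.11 CPM. Of 6 B cell markers, a cell type that also makes class II, none passed the filter, Ebf1 was at 0 in every library, and their summed level was 0.0358 to 0.282 CPM in CtrV and 0.547 to 1.07 CPM in EKO-labelled cells. Of 5 T or NK cell markers, none passed and 3 (Cd3e, Cd3g and Ncr1) were at 0 in every library. The summed level of 4 macrophage markers was 664 to 778 CPM in CtrV and 758 to 845 CPM in EKO-labelled libraries. Most of it was Adgre1 (594 to 703 CPM over all libraries), with Mertk at 1.49 to 4.07 CPM and Mrc1 at 0. Fcgr1 lay at 54.1 to 71.4 CPM in CtrV and 106 to 180 CPM in EKO-labelled libraries, without overlap. The summed level of 4 fibroblast or endothelial markers was 167 to 203 CPM in CtrV and 285 to 348 CPM in EKO-labelled libraries. Nearly all of this was Pecam1 (166 to 202 CPM and 283 to 345.5 CPM). Cdh5 lay at 0.919 to 2.87 CPM, Col1a1 had at most 1 count and Pdgfra was at 0. The part of cells of these other types in the differences between the lines was not tested.

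The class II genes H2-Oa, H2-DMa, H2-DMb1, H2-Ob, H2-Ab1, H2-Aa, H2-Eb1 and H2-Eb2 lie in this order within 249 kb on chr17:34092340-34341412 (GRCm38), H2-Aa on the minus strand and the others on the plus strand. Ciita lies on chr16:10480059-10528418, plus strand. Because Ciita acts through promoters, the windows from 250 bases before to 50 bases after RefSeq starts (GRCm38.p6) were searched on both strands for the letters ACNGATG (core of the X box) and ATTGG (Y box). Windows were found for 7 of the 10 members. The X core followed on the same strand by the Y box, with 10 to 30 bases between, was in the windows of H2-Eb1, H2-Eb2 and H2-DMb1 and in that of H2-DMb2, the second DM beta gene. Only 0.158% of all 32851 windows held this arrangement, against 9.85% for the X core and 37.4% for the Y box alone. The following stretches of 60 bases end 5 bases after the Y box. The first 4 are shown because they share the arrangement while differing in their response, and those of H2-Aa, H2-DMa, H2-Oa and H2-Ob, which lack it, are shown for comparison. Capitals mark the X core and the Y box.
H2-Eb1, chr17:34305758-34305817, plus strand: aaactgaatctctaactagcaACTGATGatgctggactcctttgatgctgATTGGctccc
H2-Eb2, chr17:34325525-34325584, plus strand: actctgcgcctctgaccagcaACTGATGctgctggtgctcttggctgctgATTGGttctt
H2-DMb1, chr17:34153080-34153139, plus strand: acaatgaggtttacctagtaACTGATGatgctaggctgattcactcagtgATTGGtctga
H2-DMb2, chr17:34145109-34145168, plus strand: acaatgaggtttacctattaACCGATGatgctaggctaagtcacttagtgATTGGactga
H2-Aa, chr17:34287862-34287921, minus strand: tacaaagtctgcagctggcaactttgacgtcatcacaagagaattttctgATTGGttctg
H2-DMa, chr17:34125270-34125329, plus strand: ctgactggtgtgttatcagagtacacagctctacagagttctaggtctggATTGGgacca
H2-Oa, chr17:34092286-34092345, plus strand: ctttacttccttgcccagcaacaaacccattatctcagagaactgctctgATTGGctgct
H2-Ob, chr17:34238798-34238857, plus strand: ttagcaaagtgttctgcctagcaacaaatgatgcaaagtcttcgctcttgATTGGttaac

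The X core and the Y box were 22 bases apart in H2-Eb1 and H2-Eb2 and 23 bases apart in H2-DMb1 and H2-DMb2. H2-Eb1 and H2-Eb2 shared 43 of the 60 bases, and H2-DMb1 and H2-DMb2 shared 54. The stretch of H2-DMa ended 188 bases before the transcript start, and the others ended 33 to 90 bases before theirs. Another window of H2-DMa held no Y box on either strand. The Y box was in a window of all 7 members, and H2-Aa, H2-DMa, H2-Oa and H2-Ob held it without the X core letters in the printed stretch. The window of H2-Oa held these letters elsewhere on the gene strand, and that of H2-Aa on the other strand. A search for these letters alone does not show whether an X box of other letters is present.

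Per length of the gene's merged exons, Cd74 was at the top in every group. In unpulsed CtrV cells its level was 10283 ± 538 RPKM (CPM per kilobase; SD, n = 3). H2-Eb1 followed with 2157 ± 124 RPKM, H2-Ab1 with 1156 ± 78.6 and H2-Aa with 694 ± 35.9. H2-DMa was at 101 ± 4.37 RPKM, Ciita at 87.0 ± 10.5 and H2-DMb1 at 65.2 ± 5.56. H2-Oa (12.1 ± 0.809 RPKM), H2-Ob (3.79 ± 0.0743) and H2-Eb2 (1.45 ± 0.203) closed the order. No neighbours in this order overlapped between libraries of the group. In OVA-pulsed CtrV cells the order was the same, with overlapping values of H2-DMa and Ciita. In EKO-labelled cells H2-DMb1 (106 ± 1.07 RPKM unpulsed) stood before H2-DMa (86.7 ± 2.75), and H2-Eb2 (4.38 ± 1.84) before H2-Ob (3.57 ± 0.441), the values of this last pair overlapping. Per length of the longest transcript, both of these exchanges of place were absent, and H2-Ab1 stood before H2-Eb1 in EKO-labelled cells, so the order of these pairs rests on the gene model. The 10 genes together took 2.81% to 3.06% of all counts in CtrV libraries and 2.66% to 2.88% in EKO-labelled libraries.

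**Figure D1:**
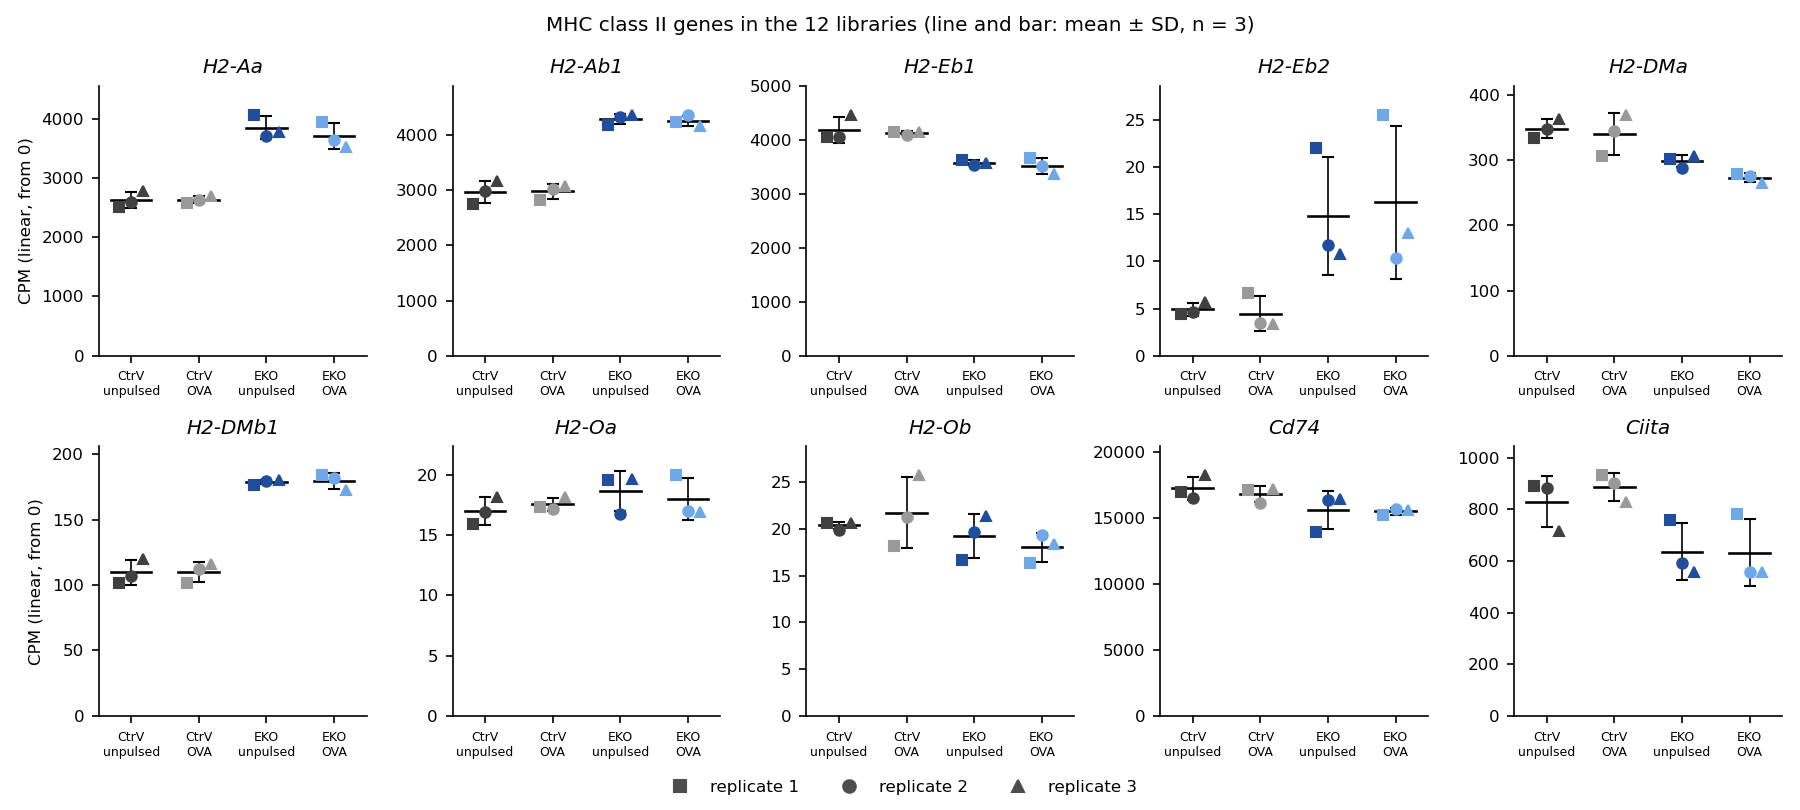
CPM of each class II gene in the 12 libraries, on linear axes from 0, with the mean ± SD of each group (n = 3) and a marker for each replicate number. H2-Aa, H2-Ab1, H2-Eb2 and H2-DMb1 sit higher in all 6 EKO-labelled libraries than in all 6 CtrV libraries, whereas H2-Eb1 and H2-DMa sit lower.

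The comparison of EKO-labelled with CtrV cells asks which of these mRNAs differ between the lines. The 10 genes moved in both directions. With OVA, 8 of the 10 members passed the test (edgeR quasi-likelihood, adjusted p under 0.05): in the EKO-labelled cells H2-Aa, H2-Ab1, H2-Eb2 and H2-DMb1 were higher, and H2-Eb1, H2-DMa, H2-Ob and Ciita lower. Over all genes tested, 47.0% passed, 25.1% higher and 21.9% lower. Without OVA, 7 members passed, the same genes except H2-Ob, against 46.4% of all genes (24.5% higher and 21.9% lower). The median log2 fold change of the members was -0.04 with OVA and 0.02 without, beside 0.00 and 0.00 over all genes. Without regard to sign, the median was 0.40 with OVA and 0.31 without, beside 0.21 and 0.21 over all genes. A difference in mRNA per culture cannot be told apart from a difference in the share of cells that make it.

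**Figure D2:**
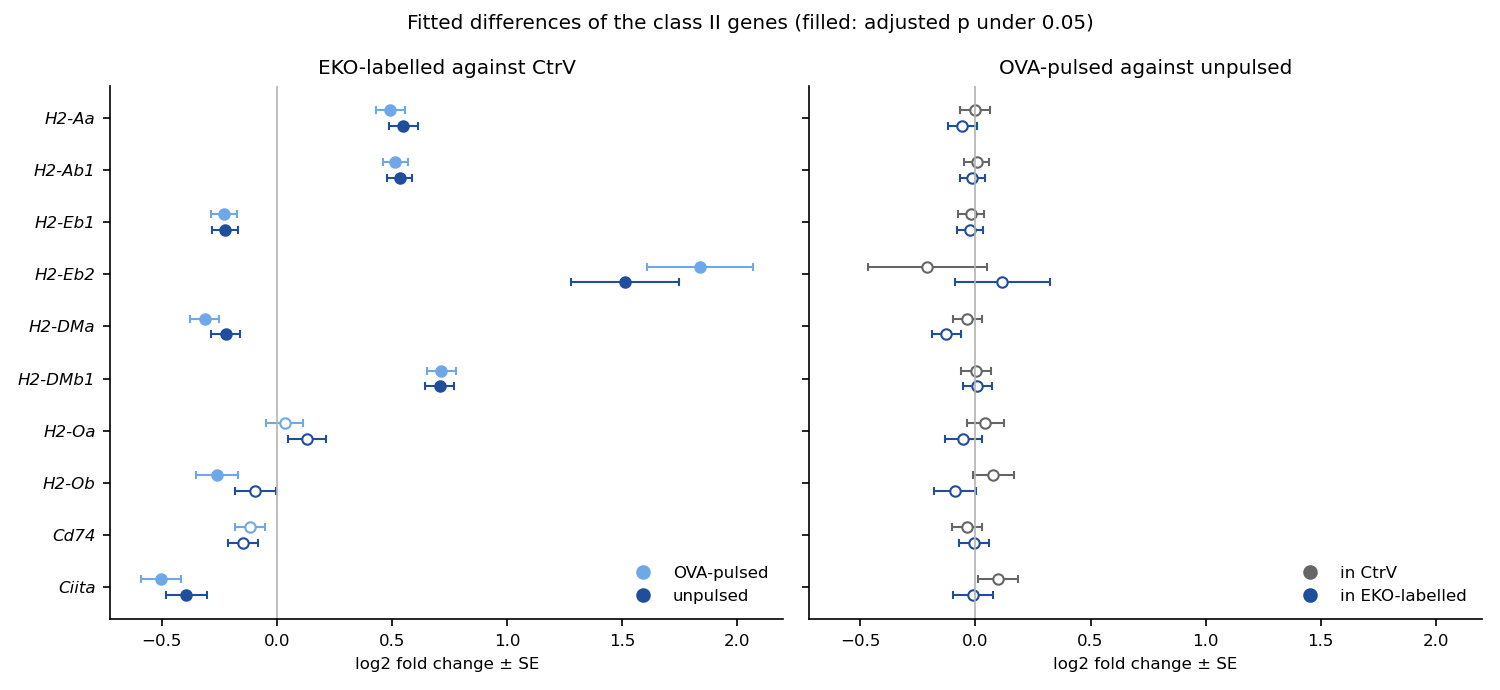
Fitted log2 fold changes ± SE of the 10 genes, EKO-labelled against CtrV cells on the left and OVA-pulsed against unpulsed cells on the right, on the same scale. Filled points passed an adjusted p of 0.05. The left panel has filled points on both sides of 0 and the right panel has none.

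Among the peptide-binding chains, H2-Aa and H2-Ab1, the alpha and beta chain of the I-A molecule, were both higher in the EKO-labelled cells. H2-Aa lay at 2520, 2597 and 2785 CPM in unpulsed and 2576, 2624 and 2693 CPM in OVA-pulsed CtrV libraries. In EKO-labelled libraries it lay at 4069, 3714 and 3783 CPM unpulsed and 3950, 3644 and 3521 CPM with OVA. The lowest EKO-labelled library was thus above the highest CtrV library, and the log2 fold change was 0.49 ± 0.06 with OVA (adjusted p = 0.00011) and 0.55 ± 0.06 without (adjusted p = 5.5e-05). H2-Ab1 lay at 2758 to 3160 CPM in the 6 CtrV libraries and at 4169 to 4369 CPM in the 6 EKO-labelled libraries, again without overlap. Its log2 fold change was 0.52 ± 0.05 with OVA (adjusted p = 2.2e-05) and 0.53 ± 0.05 without (adjusted p = 1.8e-05).

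H2-Eb1, the beta chain of the I-E molecule, went the other way. It lay at 4054, 4052 and 4471 CPM in unpulsed and 4146, 4095 and 4154 CPM in OVA-pulsed CtrV libraries. In EKO-labelled libraries it lay at 3637, 3543 and 3572 CPM unpulsed and 3672, 3527 and 3379 CPM with OVA. All EKO-labelled libraries were below all CtrV libraries, by a small amount: the log2 fold change was -0.23 ± 0.06 with OVA (adjusted p = 0.007) and -0.23 ± 0.06 without (adjusted p = 0.0077). C57BL/6 mice are known to lack a working I-E alpha gene, and the row of that gene, H2-Ea-ps, had 0 to 3 counts per library.

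H2-Eb2, the second E beta gene of the span, had the largest fold change of the members and the lowest level. Its counts were 100 to 245 per library in CtrV and 322 to 977 in EKO-labelled cells. CtrV libraries lay at 4.41, 4.65 and 5.70 CPM unpulsed and at 6.62, 3.47 and 3.32 CPM with OVA. EKO-labelled libraries lay at 22.0, 11.7 and 10.8 CPM unpulsed and at 25.6, 10.4 and 12.98 CPM with OVA, so that replicate 1 was the highest in both conditions and no library of 1 line overlapped the other. The log2 fold change was 1.84 ± 0.23 with OVA (adjusted p = 8.5e-05) and 1.51 ± 0.23 without (adjusted p = 0.0004). Without replicate 1 of the EKO-labelled cells in both conditions it was 1.53 and 1.33, and the groups still did not overlap.

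Ratios of counts within a library do not depend on the scaling between libraries. H2-Aa over H2-Ab1 was 0.884 ± 0.0249 in OVA-pulsed CtrV and 0.871 ± 0.0533 in OVA-pulsed EKO-labelled cells (SD, n = 3; two-sided exact permutation test, p = 0.6; the smallest p that 3 against 3 libraries allow is 0.1), and unpulsed the values also overlapped (exact permutation p = 1). The difference between the mean log2 ratios was -0.02 with OVA and 0.02 without. H2-Ab1 over H2-Eb1 was 0.721 ± 0.0346 in OVA-pulsed CtrV and 1.21 ± 0.0471 in OVA-pulsed EKO-labelled cells, a 1.68-fold difference without overlap (exact permutation p = 0.1). Unpulsed, it was 0.708 ± 0.0289 and 1.20 ± 0.0409, a 1.69-fold difference (exact permutation p = 0.1). All 12 libraries had this ratio either between 0.680 and 0.742 or between 1.15 and 1.24, according to their line.

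**Figure D3:**
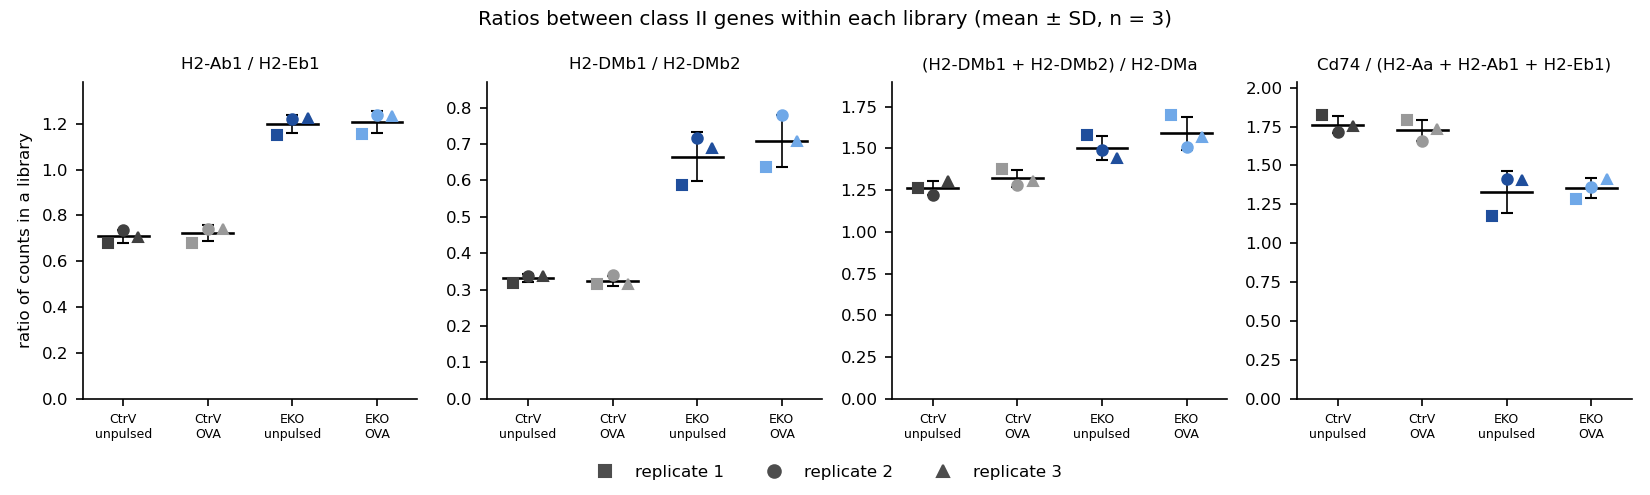
Ratios of counts between class II genes within each library, on linear axes from 0, with mean ± SD per group (n = 3). H2-Ab1 over H2-Eb1, H2-DMb1 over H2-DMb2 and DM beta over H2-DMa are higher in every EKO-labelled library than in every CtrV library, and Cd74 over the 3 chains is lower.

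The chains of H2-M also diverged. H2-DMb1, a DM beta chain, lay at 102, 107 and 120 CPM in unpulsed and 101, 112 and 116 CPM in OVA-pulsed CtrV libraries, and at 177, 179 and 180 CPM unpulsed and 184, 182 and 173 CPM with OVA in EKO-labelled libraries. The lines did not overlap, with a log2 fold change of 0.71 ± 0.06 with OVA (adjusted p = 7.3e-06) and 0.71 ± 0.06 without (adjusted p = 8.6e-06). H2-DMa, its alpha partner, lay at 307 to 370 CPM in CtrV and at 266 to 306 CPM in EKO-labelled libraries, and did not overlap within a pulsing condition. Its log2 fold change was -0.31 ± 0.06 with OVA (adjusted p = 0.0021) and -0.22 ± 0.06 without (adjusted p = 0.015). Without OVA that call was lost without EKO-labelled replicate 2 (-0.19, adjusted p = 0.069) or replicate 3 (-0.21, adjusted p = 0.055). Of the exon bases of H2-DMa, 10.4% overlap Brd2 on the other strand, and Brd2 was itself higher in EKO-labelled cells (236 to 259 CPM, against 151 to 162 CPM). The sources used here do not say if strand was used in counting, and the part of Brd2 in the H2-DMa counts was not tested.

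H2-DMb2, which shares 24.8% of its 50-base words with other genes while H2-DMb1 shares 22.7% of its own with H2-DMb2, moved against H2-DMb1. It lay at 318 to 366 CPM in CtrV and 234 to 300 CPM in EKO-labelled libraries, with a log2 fold change of -0.41 ± 0.08 with OVA (adjusted p = 0.0023) and -0.29 ± 0.08 without (adjusted p = 0.016). Without OVA its call was lost in 3 of 6 fits without 1 library (CtrV replicate 3, EKO-labelled replicate 2 or 3; adjusted p up to 0.078). H2-DMb1 made up 24.0% to 25.3% of the counts of both genes in CtrV libraries and 37.0% to 43.8% in EKO-labelled libraries. The summed level of both was 421 to 482 CPM in CtrV and 416 to 477 CPM in EKO-labelled libraries and overlapped. Reads that fit both genes may have been split between them, which makes the size of the exchange uncertain. Set against H2-DMa, the summed DM beta counts were 1.32 ± 0.0506 in OVA-pulsed CtrV and 1.59 ± 0.0976 in OVA-pulsed EKO-labelled cells, a 1.20-fold difference without overlap (exact permutation p = 0.1), and 1.26 ± 0.0411 and 1.50 ± 0.0703 unpulsed (1.19-fold, exact permutation p = 0.1).

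H2-Oa and H2-Ob, the chains of the H2-M inhibitor H2-O, gave no stable difference between the lines. H2-Oa lay at 15.9 to 18.2 CPM in CtrV and 16.8 to 19.95 CPM in EKO-labelled libraries, and did not pass the test with OVA (0.03 ± 0.08, adjusted p = 0.75) or without (0.13 ± 0.08, adjusted p = 0.22). With OVA its sign turned under upper-quartile scaling and without replicate 1 of either line. H2-Ob lay at 18.2, 21.3 and 25.8 CPM in OVA-pulsed CtrV and 16.4, 19.4 and 18.4 CPM in OVA-pulsed EKO-labelled libraries, which overlap. Its log2 fold change with OVA was -0.26 ± 0.09 (adjusted p = 0.035), and this call was not stable: it was lost without the replicate block (-0.27, adjusted p = 0.11) and in 4 of 6 fits without 1 library (adjusted p up to 0.19). Those 4 fits left out replicate 2 or 3 of OVA-pulsed CtrV cells, or replicate 1 or 3 of OVA-pulsed EKO-labelled cells. Without OVA its log2 fold change was -0.09 ± 0.09 (adjusted p = 0.43).

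Cd74, the invariant chain gene (18:60803848-60812652, plus strand), did not pass the test. It lay at 17000, 16523 and 18270 CPM in unpulsed and 17112, 16154 and 17219 CPM in OVA-pulsed CtrV libraries. In EKO-labelled libraries it lay at 13959, 16377 and 16484 CPM unpulsed and 15246, 15678 and 15649 CPM with OVA. The EKO-labelled values were below the CtrV values in both conditions, with a log2 fold change of -0.12 ± 0.07 with OVA (adjusted p = 0.18) and -0.15 ± 0.07 without (adjusted p = 0.096). Without OVA it passed under upper-quartile scaling (-0.20, adjusted p = 0.032) and with no filter on low counts (-0.15, adjusted p = 0.037). Against the summed counts of H2-Aa, H2-Ab1 and H2-Eb1, Cd74 was at 1.73 ± 0.0679 in OVA-pulsed CtrV and 1.35 ± 0.0643 in OVA-pulsed EKO-labelled cells (SD, n = 3, exact permutation p = 0.1). Unpulsed it was at 1.76 ± 0.0545 and 1.33 ± 0.136 (exact permutation p = 0.1). Its share of all members' counts was 59.2% to 61.4% in CtrV libraries and 51.4% to 56.4% in EKO-labelled libraries, and did not overlap between the lines.

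Ciita, the transactivator, was lower in EKO-labelled cells. It lay at 890, 884 and 714 CPM in unpulsed and 932, 901 and 826 CPM in OVA-pulsed CtrV libraries. In EKO-labelled libraries it lay at 760, 591 and 556 CPM unpulsed and 780, 558 and 557 CPM with OVA. Replicate 1 of the EKO-labelled cells was thus closest to CtrV cells and, unpulsed, above the lowest of these. The log2 fold change was -0.50 ± 0.09 with OVA (adjusted p = 0.00081) and -0.39 ± 0.09 without (adjusted p = 0.0039), and without the replicate block the unpulsed value was -0.38 (adjusted p = 0.062). Without replicate 1 of the EKO-labelled cells in both conditions it was -0.62 and -0.48. The 4 members that were higher in EKO-labelled cells thus moved against the mRNA of their transactivator. H2-Eb1, H2-DMa and, with OVA, H2-Ob were lower in the same cells, as Ciita was, and H2-Oa and Cd74 did not pass. The part of Ciita in these differences was not tested.

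Within a line, no relation between Ciita and another member could be established. Pearson's r and Spearman's rho of log2 CPM over the 6 libraries of a line were computed for 18 relations, 9 in each line. None passed after Benjamini-Hochberg adjustment, and 6 had an exact permutation p under 0.05 for r before it. The permutation treats the 6 libraries as exchangeable. Deviations of same-numbered libraries with and without OVA correlated at 0.711, 0.357 and 0.424 in EKO-labelled and 0.0893, 0.185 and 0.385 in CtrV cells. The permutation p-values do not account for this pairing. In CtrV cells r was negative for all 9, from -0.90 with H2-Eb1 (n = 6, exact permutation p = 0.131, adjusted 0.2; rho -0.43, p = 0.419) to -0.09 with H2-Eb2 (exact permutation p = 0.883). For H2-DMb1 in CtrV cells r was -0.82 (n = 6, exact permutation p = 0.0222, adjusted 0.133; rho -0.83, p = 0.0583, adjusted 0.35). In EKO-labelled cells r ranged from -0.88 with H2-Ob (exact permutation p = 0.0639, adjusted 0.144) to 0.97 with H2-Eb2 (exact permutation p = 0.0444, adjusted 0.133; rho 0.71, p = 0.136, adjusted 0.35). These values rest on few libraries: the 2 replicate 1 libraries of the EKO-labelled cells stood apart in Ciita, and without the 2 libraries farthest from the median of Ciita the r for H2-Eb2 in EKO-labelled cells was 0.19, that for H2-DMb1 in CtrV cells was -0.36, and 8 of the 18 changed sign.

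By the smaller of the 2 within-line correlations over all genes tested, the genes most like Ciita were Gm6201, Arhgap35, Nav1, Nup98 and Sacm1l, with r between 0.97 and 0.99 in each line (6 libraries per line). For Cd74 they were Psmd8, Gm3511, Tbrg1, Spi1 and Gm13436, with r between 0.95 and 0.99. Neither list held another member. These rankings came from 6 libraries per line that share 2 pulsing conditions and are a description only.

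Pulsing with OVA, which asks whether antigen loading itself moved these mRNAs in LPS-stimulated cells, gave no call. In CtrV cells the members' log2 fold changes lay between -0.21 ± 0.26 (H2-Eb2) and 0.10 ± 0.09 (Ciita), and in EKO-labelled cells between -0.13 ± 0.06 (H2-DMa) and 0.12 ± 0.21 (H2-Eb2). The medians were 0.00 and -0.02, beside 0.00 and 0.00 over all genes. No member had an unadjusted p under 0.05 in either line (edgeR quasi-likelihood), and DESeq2 and limma voom called none. The same held for all genes: 0 passed in either line, while 231 (1.64%) in CtrV and 394 (2.80%) in EKO-labelled cells had an unadjusted p under 0.05. H2-DMa in EKO-labelled cells was the 1 case of 20 in which the groups did not overlap (302, 288 and 306 CPM unpulsed, 278, 276 and 266 CPM with OVA; adjusted p = 1). Of all genes tested, 4.90% did not overlap in that comparison and 4.37% in CtrV cells. A dependence of the line difference on OVA was called for no member (edgeR; 0 of 10, 0 with an unadjusted p under 0.05), and the estimates of that dependence lay between -0.17 (H2-Ob) and 0.33 (H2-Eb2) on the log2 scale.

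The span of chromosome 17 that holds the 8 members contains 13 other annotated genes, of which 6 passed the filter. Of these, 5 were higher in EKO-labelled cells with OVA and 5 without, and H2-DMb2 was lower. Over all genes tested, 25.1% were higher and 21.9% lower with OVA, and 24.5% and 21.9% without. Tap1 and Tap2, the transporter that feeds peptides to MHC class I, lie between H2-DMb1 and H2-Ob together with Psmb8 and Psmb9, subunits of the immunoproteasome. Tap1 had a log2 fold change of 1.39 ± 0.13 with OVA (adjusted p = 8.9e-06) and 1.50 ± 0.13 without (adjusted p = 5.7e-06). Psmb9 followed with 1.06 ± 0.11 and 1.06 ± 0.11, Tap2 with 0.95 ± 0.06 and 0.90 ± 0.06, and Psmb8 with 0.76 ± 0.10 and 0.71 ± 0.10. The fifth, Brd2, a bromodomain protein, had 0.66 ± 0.05 and 0.67 ± 0.05. Higher and lower genes were interspersed along the span. H2-DMb2, which was lower, lies next to H2-DMb1, which was higher, and H2-Eb1, which was lower, lies between H2-Aa and H2-Eb2, which were higher.

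**Figure D4:**
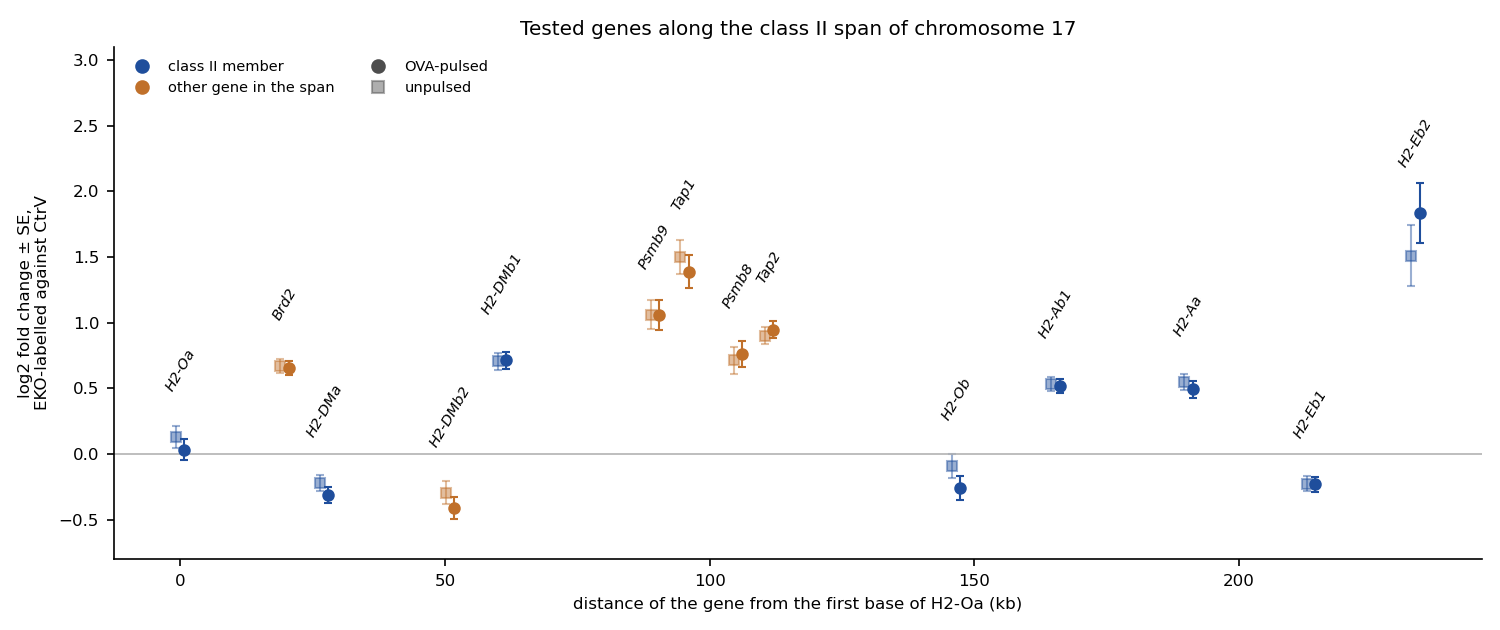
Log2 fold changes ± SE of the 14 tested genes of the class II span, EKO-labelled against CtrV cells, over the distance in kb from the first base of H2-Oa. Class II members are blue and other genes orange, with circles for OVA-pulsed and squares for unpulsed cells. The class I loading genes in the middle are all above 0, while members on either side lie above and below 0.

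Beyond the 10 members, a list of 37 genes of the class II pathway was examined, of which 35 passed the filter (H2-Ea-ps and Ifng did not). With OVA, 11 of these rose and 7 fell in the EKO-labelled cells (51.4%, beside 47.0% of all genes), with a median log2 fold change of 0.04. Without OVA, 12 were higher and 9 lower (21 of 35 genes, beside 46.4% of all genes), with a median of 0.06, and under upper-quartile scaling 8 were higher and 9 lower.

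Of 7 factors that bind class II promoters, the RFX subunits, the NF-Y subunits and Creb1, 0 passed with OVA (edgeR), beside 47.0% of all genes. Of the 7, 2 had an unadjusted p under 0.05 (edgeR), and DESeq2 and limma voom called 0. Under upper-quartile scaling, edgeR called Rfxap (-0.22, adjusted p = 0.049) and Nfyb (-0.19, adjusted p = 0.022) lower with OVA. With 1 library left out, Nfyb was not called in 4 of 6 fits and Rfxap in none was called. Rfx5, the RFX subunit that contacts the X box, lay at 21.9 to 27.1 CPM in all libraries, with a log2 fold change of -0.05 ± 0.07 with OVA and 0.16 ± 0.07 without (adjusted p = 0.52 and 0.073). Without OVA, Rfxap (-0.24 ± 0.08, adjusted p = 0.032) and Nfyb (-0.19 ± 0.06, adjusted p = 0.028) were lower (edgeR). These calls were 28.6% of the 7, beside 46.4% of all genes. DESeq2 called 0 of the 7 and limma voom 2. Under upper-quartile scaling, edgeR kept both calls (adjusted p = 0.015 for Rfxap and 0.0079 for Nfyb). The call for Rfxap was lost in 4 of 6 fits without 1 library (CtrV replicate 1 or 3, EKO-labelled replicate 2 or 3; adjusted p up to 0.14) and that for Nfyb in 3 (CtrV replicate 1, EKO-labelled replicate 1 or 2; adjusted p up to 0.12).

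Of 11 tested factors upstream of Ciita, 5 were higher and 1 lower with OVA, and 6 were higher and 1 lower without. That is 54.5% and 63.6% called, beside 47.0% and 46.4% of all genes. Prdm1, which encodes the Ciita repressor Blimp-1, lay at 7.97, 2.33 and 2.25 CPM in OVA-pulsed CtrV and 23.8, 8.53 and 13.8 CPM in OVA-pulsed EKO-labelled libraries. Its log2 fold change was 1.94 ± 0.37 with OVA (adjusted p = 0.0016) and 0.93 ± 0.39 without, which did not pass (adjusted p = 0.069). Unpulsed, its values overlapped (20.7, 7.46 and 4.83 CPM in EKO-labelled libraries, and at most 5.30 CPM in CtrV libraries), and its log2 fold change ranged from 0.34 without CtrV replicate 1 to 1.27 without CtrV replicate 2. It passed in 2 of 6 such fits, those without CtrV replicate 2 or EKO-labelled replicate 3. Without EKO-labelled replicate 1 in both conditions it was 0.58 (adjusted p = 0.31). Irf8, a factor of dendritic cell identity, had 1.35 ± 0.15 with OVA (adjusted p = 4e-05) and 1.09 ± 0.15 without (adjusted p = 0.00019). The chains of the interferon-gamma receptor moved apart. Ifngr1, the binding chain, was at 186 to 208 CPM in CtrV and 89.1 to 98.6 CPM in EKO-labelled libraries (-1.11 ± 0.05 with OVA, adjusted p = 1e-07). Ifngr2, its partner, was at 90.9 to 102 CPM and 173 to 197 CPM (0.96 ± 0.06, adjusted p = 3.3e-07). Irf4 did not pass with OVA (0.23 ± 0.14, adjusted p = 0.2) or without (0.05 ± 0.14, adjusted p = 0.8), and within EKO-labelled cells it was highest in replicate 1 (316 and 353 CPM, against 166 to 226 CPM).

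Of 11 proteases, reductases and protease inhibitors that act on the invariant chain and on antigen, 5 were higher and 3 lower in both conditions. That is 72.7% called, beside 47.0% of all genes with OVA and 46.4% without. Ctss, whose product cathepsin S trims the invariant chain in dendritic cells, lay at 465 to 596 CPM in CtrV and 585 to 678 CPM in EKO-labelled libraries (0.34 ± 0.08 with OVA, adjusted p = 0.0071, and 0.25 ± 0.08 without, adjusted p = 0.033). Without OVA that call was lost in 5 of 6 fits without 1 library, all but the one without CtrV replicate 3 (0.14 to 0.37, adjusted p up to 0.14), and under upper-quartile scaling (0.20, adjusted p = 0.084). Ctsl, for cathepsin L, rose from 3.84 to 6.25 CPM to 12.5 to 15.5 CPM (1.58 ± 0.13 with OVA, adjusted p = 3.9e-06). Cst3, for cystatin C, an inhibitor of these cathepsins, fell from 6234 to 6892 CPM to 3120 to 3285 CPM (-1.02 ± 0.05 with OVA, adjusted p = 1.2e-07). Ctsh, another cathepsin, fell from 343 to 388 CPM to 199 to 224 CPM (-0.83 ± 0.05 with OVA, adjusted p = 6.4e-07).

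Among genes that set how long class II stays at the surface, March1, the ubiquitin ligase that targets class II for breakdown, did not pass (-0.06 ± 0.07 with OVA, adjusted p = 0.5, and -0.01 ± 0.07 without, adjusted p = 0.9), with 166 to 223 CPM over all libraries. Cd83, a maturation marker that opposes March1, lay at 3.75 to 8.83 CPM in CtrV and 36.0 to 106 CPM in EKO-labelled libraries. It had the largest difference of the list, 3.60 ± 0.35 with OVA (adjusted p = 1.4e-05) and 3.03 ± 0.35 without (adjusted p = 5.4e-05), and was highest in replicate 1 of the EKO-labelled cells (89.3 and 106 CPM, against 36.0 to 62.6 CPM in the others). The binding partners of surface Cd74 were both lower: Mif with -0.50 ± 0.07 (adjusted p = 0.00018) and Cd44 with -0.19 ± 0.06 (adjusted p = 0.015) with OVA. The call for Cd44 was lost without replicate 1 or 3 of the OVA-pulsed cells of either line (adjusted p up to 0.066).

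**Figure D5:**
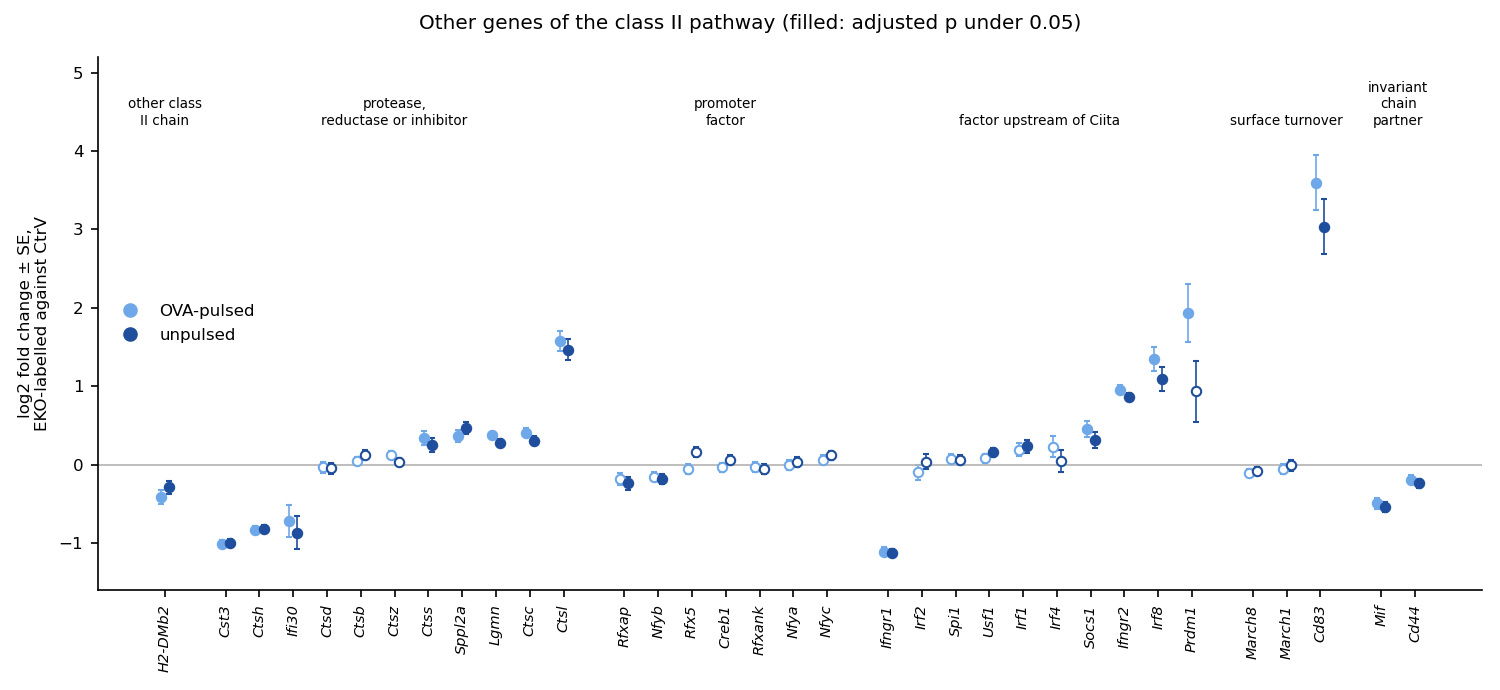
Log2 fold changes ± SE, EKO-labelled against CtrV cells, of 34 tested pathway genes, grouped by role and sorted within it, for OVA-pulsed and unpulsed cells. Filled points passed an adjusted p of 0.05. The promoter factors lie near 0, whereas the proteases and the factors upstream of Ciita spread to both sides.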

How the data were processed

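Counts of reads per gene were deposited by the authors as 1 table of raw counts, made with STAR (alignment to mm10), SAMtools and featureCounts. The aligner allowed up to 10 places per read and reported 1 of them. These counts are not normalized or filtered; both steps were applied here, after the study's methods. Genes were named with the GENCODE annotation of GRCm38, which may differ from the model counted on. Genes with log2 CPM above 0 in at least 2 libraries were tested with edgeR 4.0.16 (R 4.3.3): TMM normalization, quasi-likelihood fit over all 12 libraries, group and replicate number as terms, and Benjamini-Hochberg adjustment over 14079 genes. An adjusted p under 0.05 was called, with no fold limit. The common dispersion was 0.00590. RPKM are TMM-scaled CPM per kilobase of merged exons. Correlations were taken over log2 CPM (prior count 3), and ratios over raw counts.

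The replicate number was a term because the study's methods use it. Deviations of same-numbered libraries correlated at 0.450, 0.295 and 0.298 between the OVA-pulsed groups, but at 0.0664, -0.00915 and 0.271 between the unpulsed groups, and at 0.711, 0.357 and 0.424 between the EKO-labelled groups and 0.0893, 0.185 and 0.385 between the CtrV groups. Nothing in the sources used here says what a shared number stands for.

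The members and lists were chosen with earlier results of these data known. All members and Siglece are named. Of the pathway list, the 3 largest and 3 smallest called log2 fold changes with OVA and preset genes are named, 1 preset gene is not reported here, and Ifngr2, Rfxap, Nfyb, Mif and Cd44 were added after their values were seen. Every annotated gene within the span of the members was examined. Alternatives were RLE and upper-quartile normalization, DESeq2 1.42.0, limma 3.58.1 voom, bias-adjusted quasi-likelihood, no filter, at least 10 counts in every library, no replicate block, the 6 compared libraries alone, and each library left out. Leaving out both replicate 1 libraries of EKO-labelled cells was added after seeing the data. Promoter sequences are from RefSeq (GRCm38.p6). The steps were tested on simulated counts.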

Additional observations from a re-analysis of the deposited data

How the results depend on the processing

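The number of members called was 7 or 8 of 10 with OVA and 6 to 8 without in every alternative, and that of pathway genes 16 to 21 and 14 to 22, so none moved by more than 1.5 times. Of 320 values of single members in the line comparisons under alternatives, 304 kept direction and side of the threshold. Without the replicate block, 7 members were called with OVA and 6 without, since H2-Ob with OVA (adjusted p = 0.11) and Ciita without (adjusted p = 0.062) were lost; the block changed no other member's call. H2-Oa with OVA turned to -0.0027 under upper-quartile scaling and to -0.076 without both replicate 1 libraries of the EKO-labelled cells, and ranged from -0.054 (without EKO-labelled replicate 1) to 0.11 with 1 library left out, turning also without CtrV replicate 1 (-0.0015). H2-Ob without OVA ranged from -0.16 to 0.014 with 1 library left out, turning without CtrV replicate 1. The causes were not tested. Leaving out 1 library in turn gave log2 fold changes with OVA of 0.44 to 0.54 for H2-Aa, 1.64 to 1.96 for H2-Eb2, -0.26 to -0.18 for H2-Eb1 and -0.59 to -0.43 for Ciita.

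Under OVA pulsing 0 members were called in any of the alternatives run, in either line or for the dependence on OVA, and their values had the other sign in 19 of 150 cases in CtrV, 16 of 160 in EKO-labelled cells and 17 of 210 for the dependence, which could not be fitted to 6 libraries alone. Without the 2 libraries farthest from the median of Ciita, its r turned in CtrV cells to 0.087 with H2-Aa, 0.98 with H2-Eb1, 0.67 with H2-Eb2, 0.54 with H2-Oa and 0.44 with Cd74, and in EKO-labelled cells to 0.14 with H2-Ab1, -0.45 with H2-Oa and 0.45 with Cd74. With 100 to 977 counts per library, H2-Eb2 was measured least precisely, and 3 libraries per group limit every comparison.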
